A study of Mus musculus with 7 samples.

Results

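The naive T cell transcription factors described here are 10 mouse genes chosen by name: Lef1, Tcf7, Bach2, Satb1, Foxp1, Foxo1, Foxo3, Id2, Id3 and Ets1. All 10 were found by symbol among the 24084 gene symbols of the deposited count table, and 9 passed the filter on low counts that left 11376 genes to test. They were measured by RNA sequencing in sorted regulatory T cells (Tregs), the CD4 T cells that carry the transcription factor Foxp3. The skin group had 4 libraries of Tregs from telogen skin, that is, skin in the resting phase of the hair cycle, and the SDLN group had 3 libraries of Tregs from skin-draining lymph nodes. Both groups came from Foxp3-DTR mice aged 6 weeks, given as Foxp3-DTR/GFP in the design text, so every library carried the same reporter allele, in which the diphtheria toxin receptor and green fluorescent protein are placed under Foxp3. The labels name no treatment and no sex, and give neither the sort gates nor the number of animals behind a library. Sex-linked genes marked 1 library as male, SDLN 3 by the fit values given at the end. The p-values below measure the spread between libraries, part of which may be technical.

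A naive or resting T cell is held in its state by a small network of DNA-binding proteins, and most of these genes are known to be turned down when T cells become effector or tissue-resident cells. Tcf7 and Lef1 encode TCF-1 and LEF-1, paired high-mobility-group factors that work with beta-catenin or with Groucho repressors; Bach2 is a leucine-zipper repressor that shares binding sites with AP-1; Satb1 folds chromatin into loops; Foxp1, Foxo1 and Foxo3 are forkhead factors tied to quiescence and to the genes of lymph node homing; and Ets1 is a winged-helix factor used throughout the T cell lineage. Id2 and Id3 lack a DNA-binding region and act by holding E proteins away from their sites, and in T cells Id3 is the form associated with naive and memory cells and Id2 the form associated with effector cells.

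The E-box, CANNTG, is the site that E proteins bind and that Id proteins leave unoccupied, and the RefSeq promoter windows (GRCm38.p6, 250 bases before to 50 after a listed start, 300 in all, written 5′ to 3′ on the gene's strand) of Lef1 and the 2 Id genes are shown for it, with the E-box in capitals. The Lef1 window lies at chr3:131110047-131110346 on the plus strand, the Id2 window at chr12:25096043-25096342 on the minus strand and the Id3 window at chr4:136143572-136143871 on the plus strand.
Lef1: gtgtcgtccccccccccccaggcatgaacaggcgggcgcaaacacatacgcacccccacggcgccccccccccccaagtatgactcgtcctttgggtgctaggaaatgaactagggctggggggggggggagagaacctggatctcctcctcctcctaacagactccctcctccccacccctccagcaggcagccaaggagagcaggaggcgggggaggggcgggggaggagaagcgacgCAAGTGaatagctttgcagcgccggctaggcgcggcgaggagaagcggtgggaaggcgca
Id2: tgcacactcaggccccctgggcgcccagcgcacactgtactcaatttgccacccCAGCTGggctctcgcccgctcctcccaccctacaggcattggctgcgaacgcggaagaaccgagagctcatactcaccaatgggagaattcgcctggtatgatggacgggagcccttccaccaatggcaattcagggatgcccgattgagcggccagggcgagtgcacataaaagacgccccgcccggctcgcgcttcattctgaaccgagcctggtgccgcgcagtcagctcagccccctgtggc
Id3: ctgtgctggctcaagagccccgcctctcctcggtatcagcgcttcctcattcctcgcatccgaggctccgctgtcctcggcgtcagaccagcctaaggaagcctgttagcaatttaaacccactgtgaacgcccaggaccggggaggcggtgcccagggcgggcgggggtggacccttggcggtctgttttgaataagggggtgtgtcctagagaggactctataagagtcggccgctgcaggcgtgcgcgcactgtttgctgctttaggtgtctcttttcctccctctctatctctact
The E-box stands at position -10 from the listed start in Lef1 (CAAGTG) and at -196 in Id2 (CAGCTG), and these letters are not in the Id3 window. Windows were found for 9 of the 10 genes, and 6 of the 9 hold an E-box, against 72.2% of all 27025 mouse promoter windows of this length. Of the other motifs searched on both strands, the TCF/LEF site ATCAAAG (3.72% of all windows), the forkhead site TGTTTAC (3.55%) and the AP-1 and Bach site TGANTCA (7.93%) were in none of the 9, and the ETS site CCGGAAG (9.12%) was in the Bach2 window alone. The Id2, Id3, Foxp1 and Bach2 windows lie wholly inside the longer gene bounds of the GENCODE annotation. The Bach2 window, at chr4:32417185-32417484, is far inside a gene that starts at 32238804, so its ETS site is not at the GENCODE gene start. These matches describe letters in a window and the motifs were chosen after the expression values were known.

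The 7 libraries held 11009609 to 14785751 gene counts, and 9690 to 12639 genes were detected in skin libraries, against 13408 to 13845 in SDLN libraries. Skin 1 has a tissue tag that names the lymph node, while its title and source name give skin, and it was kept as skin. Foxp3 averaged 169 ± 65.2 CPM (counts scaled to a common library size, here by TMM) in skin and 89.0 ± 17.7 CPM in SDLN (SD, n = 4 and 3), and Cd4 averaged 466 ± 132 CPM in skin and 738 ± 78.0 CPM in SDLN, so the defining markers of the sorted cells were present in both groups. Cd3e, a chain of the T cell receptor complex, averaged 882 ± 349.6 CPM in skin and 1848 ± 308 CPM in SDLN (log2 fold change -1.07, edgeR adjusted p 0.118), and the 7 T cell markers summed to 4087 to 8142 CPM in skin, against 10213 to 13204 CPM in SDLN. Of the 7, Lck, the kinase at the T cell receptor, was called lower (log2 fold change -1.12, edgeR adjusted p 0.0406), and the call was lost without any one SDLN library (0.165 to 0.177), skin 1 (0.0574) or skin 4 (0.0765). The 5 Treg markers summed to 6891 to 11069 CPM in skin, against 4660 to 5080 CPM in SDLN. The part of these levels in the results below was not tested. Markers of other cells were uneven among skin libraries. The 6 keratinocyte markers summed to 643 CPM in skin 3 and at most 0.566 CPM in the other skin libraries, against 2.49 to 2.65 CPM in SDLN, and Krt1 was at 0 everywhere. The 6 fibroblast markers summed to 2000.5 CPM in skin 3, with 2.85 to 8.84 CPM in skin 1, 2 and 4, against 0.232 to 0.882 CPM in SDLN. The macrophage and dendritic cell markers, 10 of 11 found by symbol, summed to 720.1 CPM in skin 3, against 351 to 562 CPM in SDLN. In skin 1, 2 and 4 they summed to 3080 to 11726 CPM, with the highest value in skin 4 (7055 CPM of it from Cd74). Of the 8 tested, 4 were called higher in skin (3.28% of all tested genes) and 0 lower. These were Lyz2, H2-Aa, H2-Ab1 and H2-Eb1, with log2 fold changes of 4.06, 5.13, 5.18 and 5.51 (edgeR adjusted p 0.0347 to 0.0399). Each had all skin libraries above all SDLN libraries, and each call was lost without any one SDLN library. Cd207 was at 0 in all 7 libraries and Itgax was found in skin 4 alone. Because each library is a bulk sample, fewer cells with a transcript and less transcript per cell cannot be told apart in what follows.

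The 10 genes did not move as one group. Tcf7 and Lef1 fell in skin Tregs, Id2 rose, and the other 6 tested genes did not pass the threshold, an adjusted p under 0.05 in edgeR's quasi-likelihood test over all 11376 genes (Benjamini-Hochberg). The background for these counts is that 7.24% of all tested genes were called, 3.96% lower and 3.28% higher in skin, so 2 of 9 lower and 1 of 9 higher stand beside those shares. Their median log2 fold change, skin over SDLN, was -2.42, against 0.05 over all tested genes. All skin libraries lay below all SDLN libraries for Tcf7, Lef1, Satb1, Bach2, Foxp1 and Id3 (6 of 9; 16.5% of all tested genes), and above them for Id2 (1 of 9; 10.1%).

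**Figure D1:**
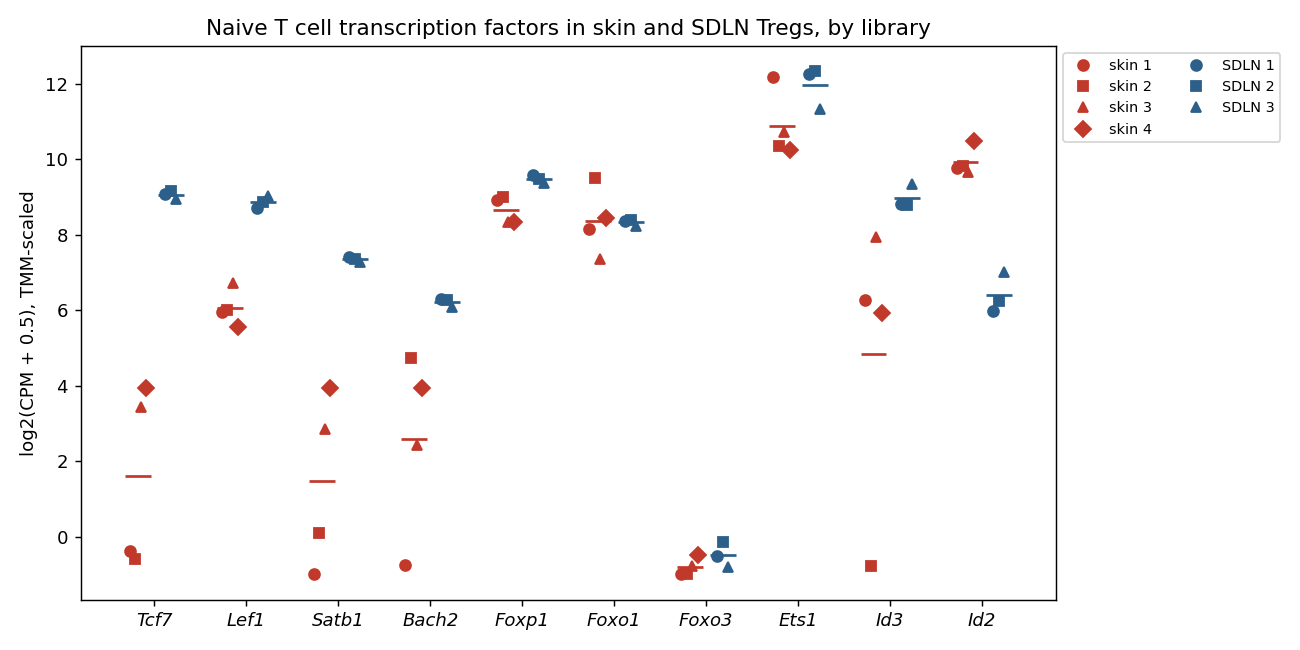
Level of each of the 10 genes in every library, on a log axis of CPM plus 0.5, with skin libraries left of SDLN libraries and a bar at each group's mean on that log scale. Id2 is the gene whose skin libraries (805 to 1431 CPM) all lie above the SDLN libraries (63.1 to 128 CPM), and Tcf7, Satb1, Bach2 and Id3 spread widely among skin libraries.

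Tcf7, on chr11:52252371-52283014 (minus strand; GRCm38, the build named mm10, as for all positions here), was the gene with the widest gap between the groups. It had 0.276, 0.162, 10.3 and 14.8 CPM in skin 1 to 4, against 545, 572 and 497 CPM in SDLN 1 to 3. In raw counts, that is 3, 2, 117 and 207 in skin, against 8038, 8287 and 6430 in SDLN. Skin 1 and 2 were therefore at or below 3 counts, and even the highest skin library was far under the lowest SDLN library. The means were 6.38 ± 7.34 CPM in skin and 538 ± 38.3 CPM in SDLN (SD, n = 4 and 3), the log2 fold change was -6.39 (SE 1.40, 95% interval -9.63 to -3.15) and the edgeR adjusted p was 0.0380. The mean level in skin was 1.19% of that in SDLN. The call did not hold without any one of the SDLN libraries (edgeR adjusted p 0.167, 0.176 and 0.165 without SDLN 1, 2 and 3) or without skin 3 (0.0605), while the log2 fold change stayed between -7.28 and -5.99 on leaving out any library.

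Lef1, on chr3:131110471-131224356 (plus strand), fell less far and more evenly. Skin 1 to 4 had 61.7, 63.5, 104 and 46.4 CPM, against 416, 469.5 and 524 CPM in SDLN 1 to 3. The highest skin library was again well under the lowest SDLN library, and no skin library was near 0. The means were 69.0 ± 24.8 CPM in skin and 470.1 ± 54.1 CPM in SDLN, a log2 fold change of -2.77 (SE 0.32, 95% interval -3.52 to -2.02; edgeR adjusted p 0.00617). The call held on leaving out any library. Skin 3, the library with keratinocyte and fibroblast markers, had the highest Lef1 of the skin libraries, and without it the log2 fold change was -3.04 (edgeR adjusted p 0.00614). Of its exonic bases in GENCODE, 13.8% are shared with the gene model Gm43352. The annotation used for the counts is not given, so whether this affected its reads is unknown. Among the other members the shared part was 7.78% for Foxo1, 5.40% for Bach2, 3.16% for Foxp1, 1.49% for Satb1 and 0 for the rest.

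Satb1, on chr17:51736187-51833290 (minus strand), was also low in skin 1 and 2 but was not called. It had 0, 0.566, 6.70 and 14.98 CPM in skin 1 to 4 (0, 7, 76 and 210 counts), against 170.3, 165 and 155 CPM in SDLN 1 to 3. The groups did not overlap, and the order of the skin libraries put skin 1 and 2 low and skin 3 and 4 higher. The log2 fold change was -4.87 (SE 1.47, 95% interval -8.26 to -1.49; edgeR adjusted p 0.104). It passed without skin 1 (edgeR adjusted p 0.0447) and in DESeq2 (adjusted p 0.00545) and limma-voom (0.0179).

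Bach2, on chr4:32238804-32586108 (plus strand), had 0.0920, 26.0, 4.94 and 14.8 CPM in skin 1 to 4 (1, 321, 56 and 207 counts), against 79.0, 77.4 and 67.1 CPM in SDLN 1 to 3. Skin 1 was at a single count, while skin 2, one of the lowest libraries for Tcf7 and Satb1, was the highest for Bach2. The groups did not overlap, yet the interval of the log2 fold change of -2.70 (SE 1.24) ran from -5.57 to 0.16 and the edgeR adjusted p was 0.306. No alternative gave a call, with adjusted p between 0.0568 and 0.598. Of its exonic bases, 5.40% are shared with Bach2os, a gene model that overlaps it.

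The forkhead genes were at or nearer to their SDLN level. Foxp1, on chr6:98925338-99522721 (minus strand), had 483, 515, 326 and 325 CPM in skin 1 to 4, against 764, 709.9 and 665 CPM in SDLN 1 to 3. The groups did not overlap, and the log2 fold change was -0.79 (SE 0.25, 95% interval -1.36 to -0.22; edgeR adjusted p 0.117). Foxp1 passed in DESeq2 (adjusted p 0.0386) and in limma-voom with sample weights (0.0270); in the weighted fit the median log2 fold change over all genes was -0.50. Foxo1, on chr3:52268336-52353221 (plus strand), had 282, 722, 165 and 346 CPM in skin, against 331, 334 and 302 CPM in SDLN. Skin 2 was above and skin 3 below every SDLN library, so the groups overlapped, with a log2 fold change of 0.23 (SE 0.46, 95% interval -0.84 to 1.30; edgeR adjusted p 0.878) that turned to -0.30 without skin 2. That interval leaves room for a change of more than 2-fold in the upward direction, and these libraries do not show that Foxo1 was equal in the 2 tissues. Foxo3, on chr10:42181841-42276755 (minus strand), had 0, 0, 1 and 3 counts in skin, against 3, 6 and 1 counts in SDLN. These values are near the limit that a count of 0 allows (3 counts, or 0.204 to 0.276 CPM by library, for counting error alone), so Foxo3 was not tested and no fold is given.

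Ets1, on chr9:32636221-32757820 (plus strand), had 4636, 1312, 1708 and 1228 CPM in skin 1 to 4, against 4944, 5188 and 2566 CPM in SDLN 1 to 3. Skin 1 lay with SDLN 1 and 2, above SDLN 3, and the other 3 skin libraries lay below every SDLN library. The means were 2221 ± 1623 CPM in skin and 4233 ± 1448 CPM in SDLN, with a log2 fold change of -0.93 (SE 0.51, 95% interval -2.12 to 0.26; edgeR adjusted p 0.416). Without skin 1, the library with the tissue tag of the lymph node, Ets1 was called lower, at a log2 fold change of -1.58 (edgeR adjusted p 0.0317). For Satb1 and Bach2 skin 1 was the lowest skin library, and for Tcf7 the next to lowest.

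**Figure D2:**
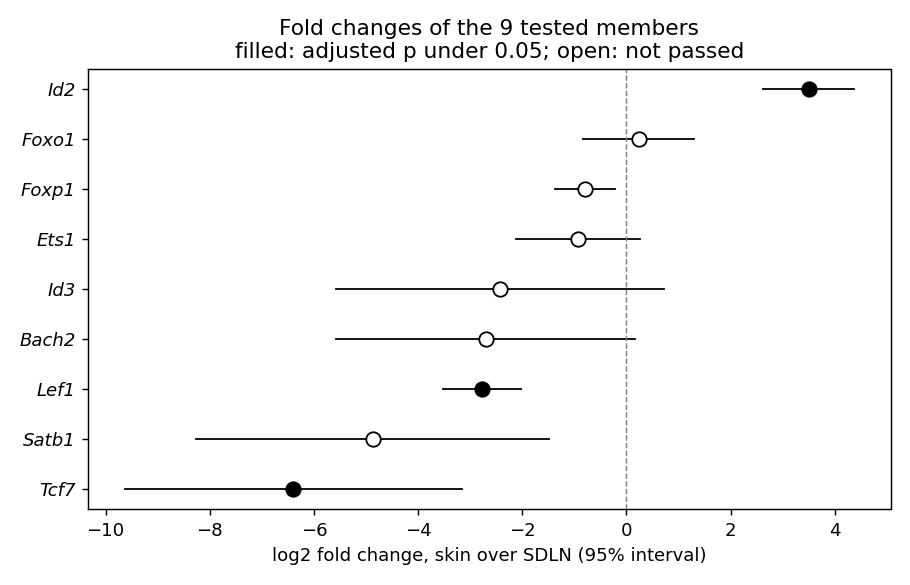
Log2 fold change of the 9 tested genes, skin over SDLN, with 95% intervals from the edgeR fit; filled points passed the adjusted p threshold. Id2 lies at 3.50, Tcf7 at -6.39 and Lef1 at -2.77, while the intervals of Bach2, Id3, Ets1 and Foxo1 cross 0.

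The Id genes differed in direction. Id2, on chr12:25093799-25097140 (minus strand), had 872, 909, 805 and 1431 CPM in skin 1 to 4, against 63.1, 75.8 and 128 CPM in SDLN 1 to 3. Every skin library was above every SDLN library, with the highest value in skin 4. The means were 1004 ± 288 CPM in skin and 89.1 ± 34.6 CPM in SDLN, 11.3-fold higher in skin (log2 fold change 3.50, SE 0.38, 95% interval 2.62 to 4.37; edgeR adjusted p 0.00470). Skin 4 also had the largest sum of macrophage and dendritic cell markers, 11726 CPM, of which Cd74 held 7055 CPM. Lyz2, Flt3, Itgax, H2-Aa, H2-Ab1 and H2-Eb1 were also highest in skin 4. Csf1r and Cd68 were highest in skin 1, at 80.7 and 23.3 CPM, against 0.785 and 18.4 CPM in skin 4. Without skin 4 the log2 fold change of Id2 was 3.26 (edgeR adjusted p 0.0167). In skin 3, Id2 was at 805 CPM. That marker sum was lowest of the skin libraries in skin 3, at 720.1 CPM, against 351 to 562 CPM in SDLN. Skin 3 also held keratinocyte and fibroblast markers, at 643 and 2000.5 CPM. The part of such cells in the Id2 level was not tested.

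Id3, on chr4:136143497-136145755 (plus strand), had 76.8, 0.0809, 246 and 60.3 CPM in skin 1 to 4 (834, 1, 2788 and 846 counts), against 452, 443 and 646 CPM in SDLN 1 to 3. Skin 2 held a single count and skin 3 the most, and no skin library reached the SDLN range. The log2 fold change was -2.42 (SE 1.36, 95% interval -5.57 to 0.73; edgeR adjusted p 0.427), and no alternative called it (adjusted p 0.0645 to 0.744). Without skin 3 it was -3.49 (edgeR adjusted p 0.259).

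Per kilobase of exon, the order of the 10 levels differed between the tissues. In skin, the mean level per kilobase (CPM per kb of merged exons) was highest for Id2 at 412, followed by Ets1 at 262, Id3 at 53.5, Foxo1 at 43.7, Foxp1 at 30.0, Lef1 at 7.85, Tcf7 at 2.43, Bach2 at 1.15, Satb1 at 0.292 and Foxo3 at 0.00998. Neighbours in the skin order overlapped in their ranges over libraries, except Ets1 and Id3, and Foxp1 and Lef1. In SDLN, the mean level per kilobase was highest for Ets1 at 499, followed by Id3 at 287, Tcf7 at 205, Lef1 at 53.5, Foxp1 at 51.9, Foxo1 at 37.2, Id2 at 36.5, Satb1 at 8.60, Bach2 at 7.49 and Foxo3 at 0.0306. Among neighbours there, overlap was limited to Ets1 with Id3, Lef1 with Foxp1 and Foxo1 with Id2. The SDLN range of Id2 (25.9 to 52.6) also overlapped those of Foxp1 (48.4 to 55.6) and Lef1 (47.4 to 59.7). By mean level, Id2 thus led the order in skin and stood below 6 of the others in SDLN. Tcf7, also by mean, stood below 6 others in skin and below Ets1 and Id3 in SDLN.

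The spread among skin libraries was unequal among these genes. The coefficient of variation of CPM over the skin libraries was 24.5% for Foxp1, 28.7% for Id2 and 36.0% for Lef1, but 115% for Tcf7, 125% for Satb1 and 73.1% for Ets1. Among the 9 tested genes it ran in SDLN from 4.79% for Satb1 to 38.8% for Id2. Over the 2320 genes whose SDLN mean reached 100 CPM, the median coefficient of variation was 42.7% in skin and 13.9% in SDLN. Values at or near 0 in a skin library also occurred in other genes, though in a small share. Of the 2320, 1.25%, 2.28%, 0.517% and 0.603% had 3 counts or fewer in skin 1 to 4, against 0 of them in each SDLN library. Among the members whose SDLN mean reached 100 CPM, Tcf7 in skin 1 and 2, Id3 in skin 2 and Satb1 in skin 1 were such values. Lef1, Foxp1, Foxo1 and Ets1 had no such value. What sets these low counts was not tested.

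Ratios of related genes within a library do not depend on how libraries are scaled, and 4 were compared by a two-sided exact permutation test over libraries, with a smallest possible p of 0.0286 and Benjamini-Hochberg adjustment over the 4. The log2 ratio of Tcf7 to Lef1, per kilobase and with 0.5 added to each count, was -5.84, -6.55, -1.59 and 0.0948 in skin 1 to 4, against 2.13, 2.03 and 1.66 in SDLN 1 to 3. Tcf7 was thus the higher of the pair in every SDLN library and, by a small margin, in skin 4, and the lower in the other skin libraries. The difference in means was -5.41 (exact permutation p = 0.0571, adjusted 0.0762). The values of -5.84 and -6.55 rest on 3 and 2 Tcf7 counts in skin 1 and 2. The log2 ratio of Id2 to Id3 was 3.06, 12.4, 1.27 and 4.12 in skin, against -3.29, -2.99 and -2.78 in SDLN, a difference of 8.24 (exact permutation p = 0.0571, adjusted 0.0762). Id2 was above Id3 in 4 of 4 skin libraries and below it in 3 of 3 SDLN libraries. The value of 12.4 rests on the single Id3 count of skin 2. The log2 ratio of Bach2 to its paralogue Bach1, on the same scale, was -1.91, -0.871, -1.05 and -0.288 in skin, against 2.55, 2.57 and 2.29 in SDLN, a difference of -3.50 (exact permutation p = 0.0286, the smallest possible, adjusted 0.0762). The value of -1.91 rests on 1 Bach2 count and 3 Bach1 counts in skin 1. Foxo1 to Foxo3 overlapped between the groups (difference 1.41, exact permutation p = 0.343, adjusted 0.343) and rests on Foxo3 counts near 0. None of the 4 passed 0.05 after adjustment.

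**Figure D3:**
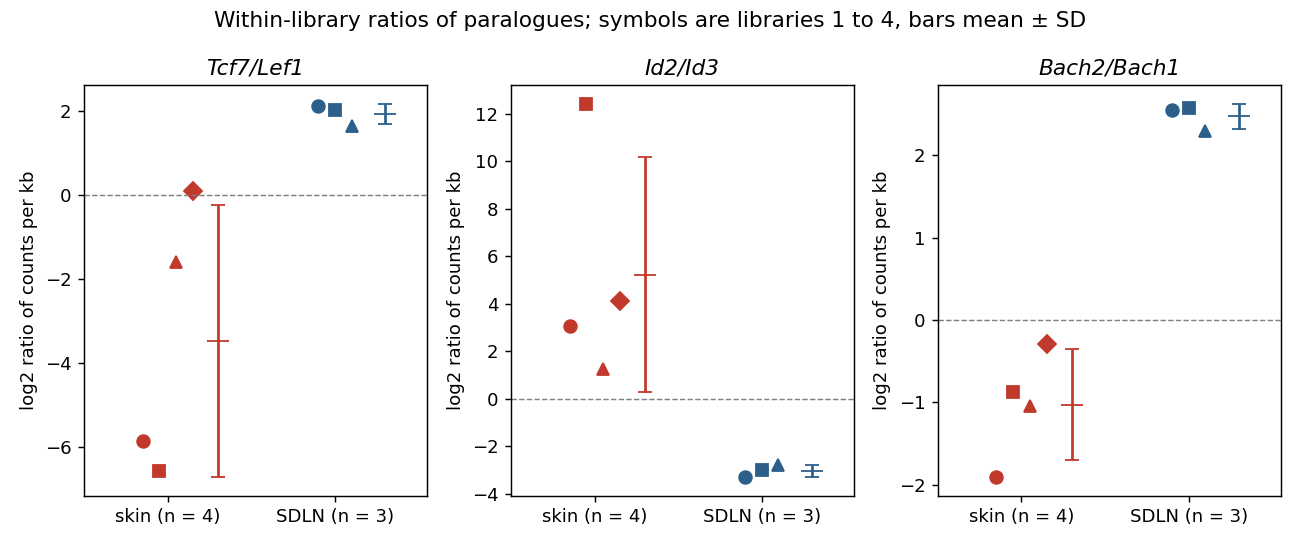
Log2 ratio of related genes per kilobase in every library, skin left of SDLN, with bars at the mean ± SD (n = 4 and 3). The Id2 to Id3 ratio is above 0 in all skin libraries and below 0 in all SDLN libraries, and Tcf7 to Lef1 and Bach2 to Bach1 are above 0 in all SDLN libraries.

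The partners and targets of these factors were read from 8 gene lists, which like the members were chosen with earlier results of these data known. Among 12 genes known as FOXO targets in T cells, all tested, 3 fell and 1 rose in skin, with a median log2 fold change of -0.41. Over all tested genes the shares were 3.96% lower and 3.28% higher. S1pr1, the sphingosine phosphate receptor of lymph node exit, had 119, 54.8, 45.2 and 50.4 CPM in skin 1 to 4, against 1053, 1049 and 953 CPM in SDLN 1 to 3. The groups did not overlap, and the log2 fold change was -3.92 (SE 0.39, edgeR adjusted p 0.00377). The chemokine receptor Ccr7 also fell (log2 fold change -3.46, edgeR adjusted p 0.0117), and Il7r, a chain of the interleukin-7 receptor, rose (1.46, edgeR adjusted p 0.0380); both were named after their values were seen. Klf2, a Kruppel-like factor and direct FOXO1 target, overlapped between the groups (-1.11, edgeR adjusted p 0.695). The calls of Ccr7 and Il7r were lost without any one SDLN library, at edgeR adjusted p of 0.0665 to 0.0693 for Ccr7 and 0.165 to 0.176 for Il7r, and that of S1pr1 was not lost under any alternative. Without skin 1 the list's count of higher genes was 2 in place of 1. It had 2 lower and 0 higher genes without any one SDLN library, and 4 lower without skin 3.

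In the list of Bach partners and effector transcription factors, 4 of 8 tested genes rose and none fell, with a median log2 fold change of 1.95. Rora, a nuclear receptor of tissue lymphocytes, had the smallest adjusted p (log2 fold change 4.43, edgeR adjusted p 0.00104) and was called under every alternative. Prdm1, which encodes BLIMP-1 and is a known target of Bach2 repression, had 534, 170.1, 243 and 125 CPM in skin 1 to 4, against 32.7, 40.5 and 25.7 CPM in SDLN 1 to 3 (log2 fold change 3.02, SE 0.57; edgeR adjusted p 0.0327). The groups did not overlap, and the highest Prdm1 was in skin 1. Whether Prdm1 followed Bach2 over the libraries was not tested. Irf4 (2.25, edgeR adjusted p 0.0380) and Gata3 (1.65, edgeR adjusted p 0.0380), both factors of effector Tregs, also rose and were named after their values were seen. Without any one SDLN library the list's count fell to 1, with edgeR adjusted p of 0.141 to 0.167 for Prdm1 and 0.165 to 0.176 for Irf4 and Gata3. Rora and Gata3 are also markers of type 2 innate lymphoid cells. Of the other 4 markers of those cells, Il1rl1 had 325 to 534 CPM in skin, against 19.7 to 29.0 CPM in SDLN. Il13 had at most 0.0881 CPM in any library, Il5 was above 0.1 CPM in skin 4 alone, at 30.3 CPM, and Arg1 had 25.1 CPM in skin 3 and 0 in the other skin libraries, against 2.63 to 3.25 CPM in SDLN. The part of such cells in this result was not tested. Bach1 itself differed by 0.51 (edgeR adjusted p 0.913).

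The cofactors of TCF-1 and LEF-1 did not pass the test in either direction. None of 14 tested genes was called by edgeR, with 6 higher and 0 lower at an unadjusted p under 0.05, 3 higher and 0 lower in DESeq2 and 0 in limma-voom, and the list median was 0.95. Ctnnb1, which encodes beta-catenin and was the most abundant of them, had 136, 346, 498 and 266 CPM in skin 1 to 4, against 111, 135 and 122 CPM in SDLN 1 to 3. All skin libraries were above all SDLN libraries, with a log2 fold change of 1.35 (SE 0.43, edgeR adjusted p 0.124), and it passed without skin 1 (1.60, edgeR adjusted p 0.0305). Without skin 1, 4 genes of the list were called higher, and without skin 3, 1 was called lower.

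The partners of the Id proteins, E proteins and the other Id genes, likewise had no call among the 3 tested, all E proteins, with 0 at an unadjusted p under 0.05 and 0 in DESeq2 and limma-voom. Without skin 2, 1 gene was called higher. Tcf12, the E protein HEB, averaged 60.0 ± 40.2 CPM in skin and 77.1 ± 10.99 CPM in SDLN (log2 fold change -0.36, edgeR adjusted p 0.826). Id1 and Id4 were too low to test. Among 11 kinases and phosphatases upstream of FOXO, none was called, with 2 higher and 0 lower at an unadjusted p under 0.05, 2 higher in DESeq2 and 0 in limma-voom. Without skin 4, 1 gene was called higher. Inpp5d, the lipid phosphatase SHIP1, averaged 585 ± 242 CPM in skin and 265 ± 57.9 CPM in SDLN (log2 fold change 1.14, edgeR adjusted p 0.132).

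Of 11 tested quiescence genes 1 rose and 1 fell (3.28% and 3.96% of all tested genes), with a median log2 fold change of 0.56. Slfn2, a Schlafen gene required for T cell quiescence in mice, fell (309 ± 67.4 CPM in skin and 1228 ± 229 CPM in SDLN; log2 fold change -1.99, edgeR adjusted p 0.00776), and Btg1, an antiproliferative gene, rose (442 ± 139 CPM in skin and 166 ± 19.2 CPM in SDLN; 1.41, edgeR adjusted p 0.0382). Slfn2 was not called without SDLN 1 (edgeR adjusted p 0.0571), and Btg1 was not called without any one SDLN library (0.165 to 0.188), skin 2 (0.0551) or skin 4 (0.0766). Without skin 1 the list had 2 higher and 2 lower genes, and without skin 3 it had 3 lower. In the ETS family 1 of 10 tested genes rose, against 3.28% of all tested genes. This was Ets2, the nearest relative of Ets1 (log2 fold change 3.64, edgeR adjusted p 0.0380). It had 20.9, 155, 99.0 and 160.1 CPM in skin 1 to 4, against 8.89, 10.4 and 6.87 CPM in SDLN 1 to 3. Skin 1 had the lowest Ets2 and the highest Ets1 of the skin libraries. The Ets2 call was lost without any one SDLN library (0.165 to 0.176) or skin 4 (0.0593). Of the forkhead and SATB paralogues, none of 3 tested was called, with 1 higher (Foxp3) at an unadjusted p under 0.05 and 0 in DESeq2 and limma-voom. Foxp3 itself differed by 0.93 (edgeR adjusted p 0.242).

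**Figure D4:**
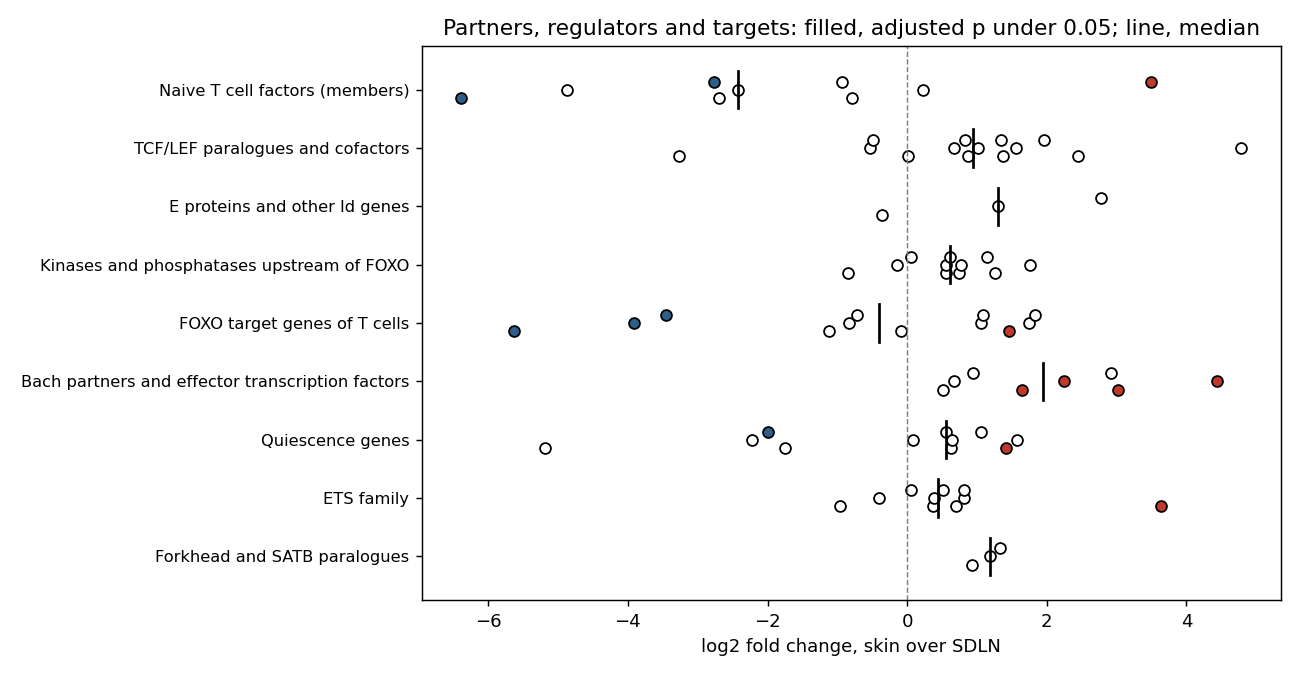
Log2 fold change, skin over SDLN, of the 9 tested members (top row) and of every tested gene in the 8 partner and target lists, with a line at each list's median and small vertical offsets for visibility only; filled red points were called higher and filled blue points lower. The list of Bach partners and effector factors has 4 filled points above 0, all of them effector factors. The FOXO target list has 3 below 0 and 1 above.

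The genes most like Lef1 and Tcf7 over the 7 libraries were ranked by the root mean square difference of centred log2 CPM over 7045 candidates whose mean reached 20 CPM. Nearest to Lef1 were Slc35a1, a sialic acid transporter of the Golgi, at 0.36, Cdca4 at 0.38 and Abi3 at 0.41 log2 units. Slc35a1 averaged 14.6 ± 1.79 CPM in skin and 96.4 ± 8.21 CPM in SDLN, Cdca4 averaged 34.1 ± 9.11 CPM in skin and 152 ± 5.31 CPM in SDLN, and Abi3 averaged 10.7 ± 3.40 CPM in skin and 56.8 ± 7.74 CPM in SDLN. Nearest to Tcf7 were Gimap7, a lymphocyte GTPase, at 0.63, Gm15708 at 0.93 and Nsg2 at 0.97 log2 units. Gimap7 had 0, 0, 13.0 and 5.78 CPM in skin 1 to 4, against 243, 188 and 354 CPM in SDLN 1 to 3, with low skin 1 and 2 as in Tcf7. Nsg2 had 0.0920, 0, 0.970 and 14.0 CPM in skin, against 118, 126 and 154 CPM in SDLN. These likenesses describe 7 libraries and were ranked, not tested.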

How the data were processed

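Messenger RNA of 7 sorted Treg libraries was sequenced, 4 from skin and 3 from SDLN, with cDNA made by the SMARTer Ultra Low Input kit, per the labels' protocols. The authors deposited unnormalized counts of reads for each gene symbol; the submitters' processing notes name HTSeq 0.6.1, Bowtie2 2.1.0.0, TopHat2 2.0.12, CASAVA 1.8.2, SAMtools 0.1.19.0 and the mm10 build. For annotation and strand setting, nothing is given in the sources used here, and overlapping genes could not be separated. Columns were assigned by title. The 5 summary lines were left out of library sizes; reads outside genes made up 10.0% to 17.1% of the table's counts and alignments to several places 61.2% to 70.4%.

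Genes were kept by filterByExpr (minimum count 10), scaled by TMM and tested with edgeR 4.0.16's robust quasi-likelihood test (R 4.3.3) with tissue as the term, two-sided, with Benjamini-Hochberg adjustment over 11376 genes and a threshold of 0.05. The members, the lists and the motifs were chosen with earlier results of these data known. Beyond the 10 members, named genes are, of each list, up to 2 called genes with the smallest adjusted p or else the most abundant one, the 3 genes most like Lef1 and Tcf7, and Foxp3, Cd4 and Cd3e as a check of the cells. A gene that this rule names is not reported here, though it stays in the counts of its list. Other settings were RLE, upper-quartile or no scaling, other filters, DESeq2 1.42.0, limma-voom (limma 3.58.1), covariates, a stricter threshold, a test against a fold of 1.5 and leaving out each library. Gene positions and exon lengths are from GENCODE vM21, and promoter windows are from RefSeq.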

Additional observations from a re-analysis of the deposited data

Results flagged for a closer look

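In groups of 4 libraries, a library was marked where its gap to the nearest other library took up more of the group's range than Dixon's 95% critical value. The 33 groups checked in skin were gene levels and the 4 ratios. Of these, 5 met this, all of them gene levels, and chance marks about 1 in 20. Id2 was at 1431 CPM in skin 4, while skin 1 to 3 lay between 805 and 909 CPM. Ets1 was at 4636 CPM in skin 1, apart from 1228 to 1708 CPM. S1pr1 was at 119 CPM in skin 1, apart from 45.2 to 54.8 CPM, while SDLN libraries lay between 953 and 1053 CPM. Slfn2 was at 409 CPM in skin 2, apart from 265 to 289 CPM. Nsg2, one of the genes most like Tcf7, was at 14.0 CPM in skin 4 and at most 0.970 CPM in the other skin libraries; without skin 4 it was called lower in skin (log2 fold change -8.56, edgeR adjusted p 0.0415). What sets these libraries apart was not tested.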

How the results depend on the processing

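Id2 was the 1 member called higher under all 22 alternatives (log2 fold change 3.26 to 3.86, adjusted p 6.76e-18 to 0.0480). The number of members lower in skin, 2 as reported, was 1 with no low-count filter and 1 at an adjusted p under 0.01. With a covariate for sex it was 1. Sex was read from sex-linked genes, which marked 1 library as male, so that fit sets this library apart. Its log2 fold changes were close to those without SDLN 3, at 3.85 against 3.84 for Id2 and -1.19 against -1.20 for Ets1. By these values the male library is SDLN 3, so sex was not balanced between the tissues. An effect of sex cannot be told apart from other differences of that library. In DESeq2 and in limma-voom with sample weights the number of lower members was 4. Leaving out each library in turn gave 1 to 4. With the replicate number as a block it was 0 on the 6 libraries that share numbers and 1 on all 7; Lef1 then had an adjusted p of 0.0553 on the 6. The numbers are not known to pair the libraries: deviations of same-numbered libraries correlated at 0.067, -0.0018 and -0.040, and not every library correlated best with its own number.

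Over all genes the reported 373 higher and 451 lower calls became 32 and 10 with the replicate block on 6 libraries, 44 and 12 with it on 7, 62 and 16 with the sex covariate, 188 and 70 with no low-count filter, 285 and 99 with a mean of at least 5 CPM, 72 and 16 at 0.01, 1071 and 746 in DESeq2, 271 and 729 in limma-voom, 757 and 985 with sample weights and 594 and 987 with a weight per group. Leaving out 1 SDLN library left 33 to 61 higher and 9 to 15 lower. The median log2 fold change of all genes was -0.62 in limma-voom and -0.55 with the block on 6 libraries.

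The ratios kept their sign under each alternative run; leaving out a library gave -6.60 to -4.39 for Tcf7 to Lef1, 5.83 to 9.55 for Id2 to Id3, -3.75 to -3.21 for Bach2 to Bach1 and 0.656 to 1.94 for Foxo1 to Foxo3, where the smallest possible exact permutation p is 0.0667 or 0.1. Foxo3 was under the low-count filter and was not tested.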
